A study of Xenopus laevis with 4 samples.

Results

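The miRNAs described here are miR-7, miR-96, miR-182, miR-183, miR-218 and miR-375, which are known from neurons, sensory cells or endocrine cells. They were chosen by number alone, with any suffix ignored, from a table of 98 miRNAs listed under Xenopus tropicalis names. The rule found 5 of the 98 rows, which were miR-218, miR-7, miR-375, miR-182 and miR-183. No row of the table used here was named miR-96, which therefore has no value. All 98 rows had reads in some library, so whether a missing row means no reads or a miRNA left unlisted cannot be told. The RNA came from epidermal explants of Xenopus laevis, the African clawed frog, dissected from embryos fertilised in vitro and grown in culture medium to either of 2 stages. One group was stage 26, a tailbud stage at which the labels call the epidermis ciliated, and the other was stage 11.5, a gastrula stage called non ciliated. No label names a mutation or a drug in either group. Each stage was represented by 2 libraries, a and b, which were technical replicates prepared from 1 pooled batch of 50 explants, so every p-value below covers the spread between libraries and not between batches of embryos. Developmental age and ciliation differ together between the stages and cannot be told apart. In pooled explants, a change in the number of cells of a type and a change in RNA per cell cannot be told apart either.

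A miRNA is a short RNA that guides a silencing complex to matching messenger RNAs, and most of the match is made by its seed, bases 2 to 8 from the 5′ end. miR-218 is encoded within introns of Slit genes and is best known from motor neurons of mouse and chick. miR-7 and miR-375 are known from neurosecretory and endocrine cells, among them the pancreatic islets of mouse and zebrafish. miR-182 and miR-183 are transcribed with miR-96 from 1 cluster in vertebrates, which is known from photoreceptors, hair cells and other sensory cells. Embryonic Xenopus epidermis is a mixed epithelium of mucus-secreting goblet cells, multiciliated cells, ionocytes and small secretory cells.

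The mature sequences in the table show which of these miRNAs could share targets or reads. They are printed 5′ to 3′ in the DNA letters of the table, with the seed in capitals.
miR-218: tTGTGCTTgatctaaccatgt
miR-7: tGGAAGACtagtgattttgttg
miR-375: tTTGTTCGttcggctcgcgtta
miR-182: tTTGGCAAtggtagaactcaca
miR-183: tATGGCACtggtagaattcactg

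Each of the 5 had a seed of its own, and no other row of the table shared a seed, or bases 2 to 7, with any of them. miR-218 and miR-7 were at least 9 single-base edits (substitutions, insertions or deletions) away from every other row, and miR-375 at least 10. Reads of these 3 rows would thus need many errors to be counted on another row. miR-182 and miR-183 were 5 edits apart and were each other's nearest row. Over the 22 positions they share, counted from 1 at the 5′ end, 18 were equal. The substitutions from miR-182 to miR-183 were T2A, A8C, C17T and A22T. Of these, T2A and A8C fall in the seed, at its first and last base. The longest stretch in common was tggtagaa, at bases 9 to 16 of both. All 5 rows began with T, as did 58.2% of the 98 rows.

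The values were reads of a miRNA scaled to a total of 1000000 over all listed miRNAs (CPM). Values came in whole steps of the lowest value above 0 in their library, and this step was taken as 1 read. This gave 41878 to 46892 miRNA reads per library at stage 26, against 22668 to 30406 at stage 11.5. The miR-427 family (miR-427 and miR-428), abundant in the early embryo, took 7.40% to 8.08% of reads at stage 26 and 81.9% to 87.2% at stage 11.5. That left 8403 reads for all other miRNAs over both stage 11.5 libraries, so a row at 0 there is a weak limit. Levels are therefore also given per 1000000 reads outside this family, called non-427 CPM below. Libraries a and b of a stage were not equal within counting noise: their chi-square divided by its degrees of freedom was 7.16 for stage 26 and 21.7 for stage 11.5. Intervals on reads below cover counting error only, because the reads carry no molecular identifiers and may be copies of 1 molecule, and they are too narrow for the whole error.

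The 5 miRNAs together took 1.43% ± 0.0551 of miRNA reads at stage 26 and 0.113% ± 0.0712 at stage 11.5 (SD, n = 2 each). Per library they took 1.39% (651 reads) and 1.47% (614 reads) at stage 26, against 0.163% (37 reads) and 0.0625% (19 reads) at stage 11.5. The exact 95% binomial intervals were 1.28% to 1.50% and 1.35% to 1.59% at stage 26, and 0.115% to 0.225% and 0.0376% to 0.0976% at stage 11.5. Both stage 26 libraries were thus above both stage 11.5 libraries. As shares of the non-427 reads, the values were 1.55% ± 0.0517 at stage 26 and 0.811% ± 0.659 at stage 11.5 (SD, n = 2 each). The libraries still did not overlap, at 1.51% and 1.58% against 1.28% and 0.345%, but the stage 11.5 libraries were farther apart than library a of stage 11.5 was from stage 26. Without miR-218, the other 4 took 0.345% ± 0.0553 of all reads at stage 26 and 0.111% ± 0.0681 at stage 11.5 (SD, n = 2 each). Per library this was 0.384% and 0.306% at stage 26, against 0.159% and 0.0625% at stage 11.5, without overlap. The direction of the means turned in non-427 reads, of which they took 0.374% ± 0.0619 at stage 26 and 0.794% ± 0.634 at stage 11.5, with overlapping libraries. No test is given for these sums, since the smallest p that an exact permutation test allows with 2 libraries a stage is 0.33.

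The make-up of these reads differed between the stages. In libraries a and b, miR-218 held 72.4% and 79.2% of the reads of the 5 miRNAs at stage 26, against 2.70% and 0% at stage 11.5. miR-375 held 12.9% and 8.31% at stage 26, against 67.6% and 52.6% at stage 11.5. miR-7 held 8.91% and 7.98% at stage 26, against 29.7% and 47.4% at stage 11.5. The most read of the 5 was therefore miR-218 in both stage 26 libraries and miR-375 in both stage 11.5 libraries. In library b of stage 11.5 miR-375 led miR-7 by only 10 reads to 9, an order that counting error leaves unresolved.

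**Figure D1:**
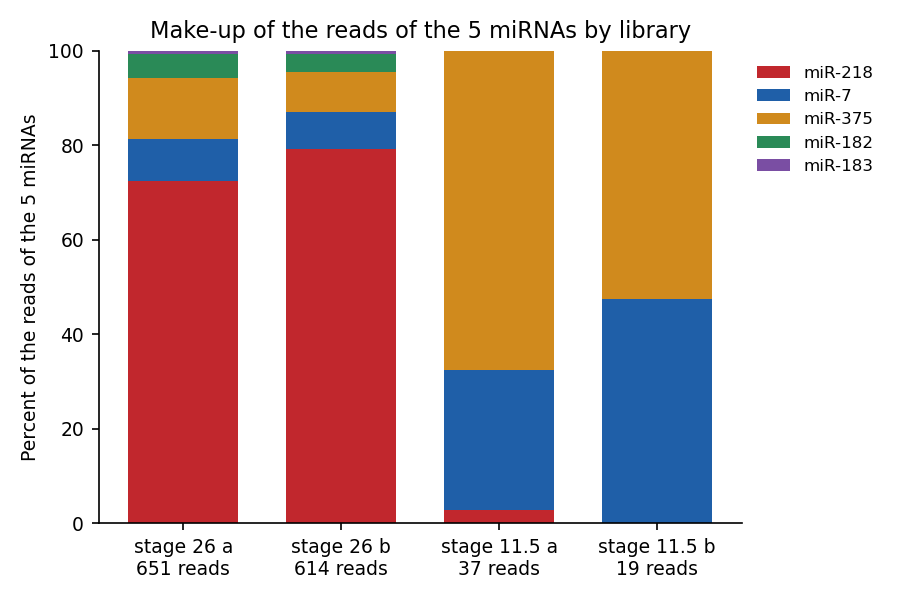
Percent of the reads of the 5 miRNAs taken by each of them (y axis), for both libraries of stage 26 and both of stage 11.5 (x axis, with the number of reads of the 5 miRNAs in that library). miR-218 fills 72.4% and 79.2% of the stage 26 bars, while the stage 11.5 bars, which rest on 37 and 19 reads, are almost all miR-375 and miR-7.

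The comparison asked how the level of each miRNA differed between the ciliated and the non ciliated stage. It was tested with limma on log2 CPM over the 52 miRNAs that passed a filter on low values (at least 276.7 CPM, worth 10 reads at the median depth, in 2 or more libraries, and a total of 15 reads), with Benjamini-Hochberg adjustment over all 52. CPM were first divided by TMM factors (a trimmed mean of log ratios between libraries), which offset the space taken by a few abundant miRNAs, and a pseudocount of 50 CPM was added. Scaling moved stage 26 down against stage 11.5 by 1.98 on the log2 scale, a factor of 3.95. Of the 52, 20 were higher at stage 26 (38.5%) and 11 lower (21.2%) after scaling, at an adjusted p under 0.05. In the deposited CPM 37 were higher (71.2%) and 6 lower (11.5%), so a higher CPM alone does not set a miRNA apart in these data. In non-427 CPM, 14 were higher (26.9%) and 14 lower (26.9%). The median scaled log2 fold change over the 52 was 0.47.

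Of the 5 miRNAs, 4 passed the filter and were tested, and miR-183 did not reach it. After scaling, miR-218 and miR-182 were higher at stage 26, and no miRNA of the 5 was called lower by limma, nor was any lower at an unadjusted p under 0.05. miR-218 and miR-182 passed the filter through the stage 26 libraries alone. With stage 11.5 values under the filter, they could enter the test only by being higher at stage 26. Their count therefore carries no weight against the 38.5% over all tested miRNAs. In CPM, both stage 26 libraries lay above both stage 11.5 libraries for all 5, as they did for 63.3% of the 98 rows. After scaling the listed values of miR-218, miR-182 and miR-183 were ordered in this way, as were those of 45.9% of the 98 rows, although a 0 at stage 11.5 does not place miR-183 below its level at stage 26 at this depth.

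**Figure D2:**
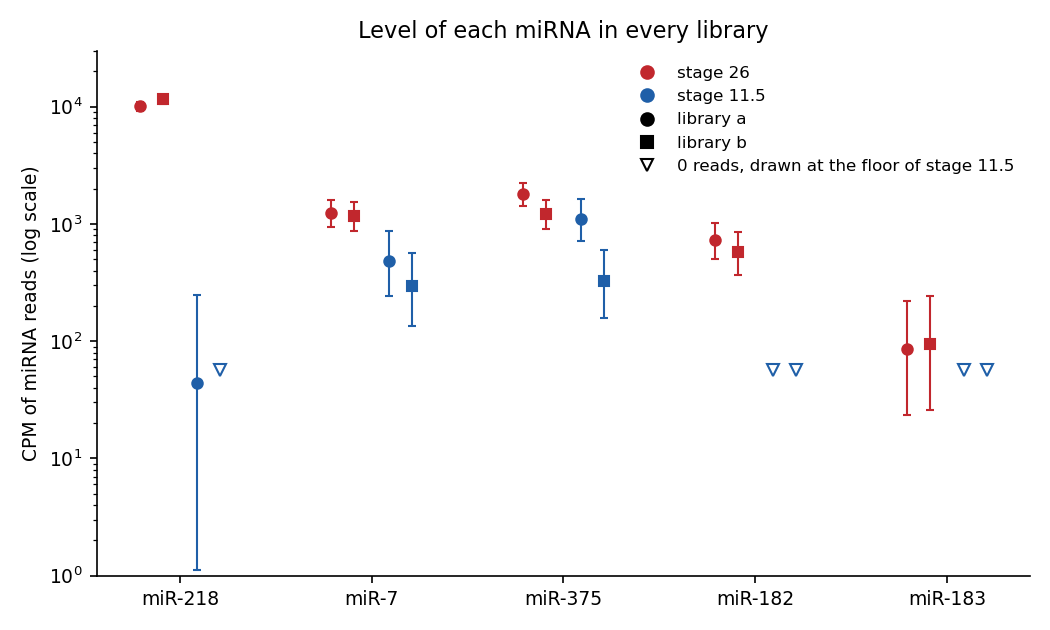
CPM on a log scale (y axis) of each of the 5 miRNAs in the libraries of stage 26 and stage 11.5, with exact 95% binomial intervals that cover counting error. Open triangles mark libraries with 0 reads, drawn at 56.5 CPM, the level of 3 reads over both libraries of stage 11.5. miR-218 stands at 10044 and 11605 CPM in the stage 26 libraries and has 1 read at stage 11.5, while the intervals of miR-183 at stage 26 reach both above and below the triangles of stage 11.5.

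miR-218, the motor neuron miRNA, had the highest level of the 5 at stage 26. It stood at 10044 and 11605 CPM in stage 26 libraries a and b (471 and 486 reads), against 44.1 and 0 CPM at stage 11.5 (1 and 0 reads). It ranked 16th and 15th of the 98 miRNAs in the stage 26 libraries. Its stage 26 libraries differed 1.16-fold from each other, and its single stage 11.5 read lay in library a. Means were 10825 ± 1104 CPM at stage 26 and 22.1 ± 31.2 CPM at stage 11.5 (SD, n = 2 each). At its stage 26 share, 572 reads would have been counted over the stage 11.5 libraries. Set against the reads outside the miR-427 family, 98.2 reads would have been counted, still far above the 1 read seen. Over pooled reads, its share was 572 times as large at stage 26 (exact 95% interval 102 to 22623). The ratio was 98.2 in non-427 CPM (interval 17.6 to 3883) and 146 after TMM scaling (interval 26.1 to 5774).

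The fit called miR-218 higher, by 6.02 on the scaled log2 axis (SE 0.557, limma adjusted p = 0.000849). As miR-218 was tested through its stage 26 level alone, the reads above are the better account of its difference. The same entry through stage 26 applies to the deposited CPM (log2 7.30, limma adjusted p = 1.79e-05) and to non-427 CPM (log2 6.39, limma adjusted p = 0.00912). None of these calls adds support to the reads. The call was lost when either stage 26 library was left out, at limma adjusted p = 0.0916 without a and 0.0868 without b, the 15 alternatives spanning 1.62e-06 to 0.0916. The fold change then stayed near its value, at log2 5.90 and 5.68. It depends on the pseudocount, since 1 read is close to 0, and was log2 7.41 with 10 CPM and 4.54 with 200 CPM. Of the 11 rows with exactly 1 read at stage 11.5, miR-218 had the most reads at stage 26, 957 against 116 for the next, miR-30a-5p. The table thus held 957 miR-218 reads at the ciliated stage and 1 at the non ciliated stage.

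miR-182, a sensory cell miRNA, was not seen at stage 11.5. It stood at 725 and 573 CPM in stage 26 libraries a and b (34 and 24 reads), against 0 in both libraries of stage 11.5. The floor for a row at 0 was set at 3 reads over both libraries of stage 11.5, which is 56.5 CPM. The pooled stage 26 share of miR-182 was 11.6 times this floor. The value was 2.95 after TMM scaling and 1.98 in non-427 CPM, where the floor was 357. These values leave out the counting error of its 58 reads at stage 26, so they are no lower bounds. At its stage 26 share, 34.7 reads would have been counted at stage 11.5, or 5.95 when set against the reads outside the miR-427 family. The stage 26 libraries agreed within 1.27-fold, and the size of the difference was measured only against the floor, over pooled reads. In non-427 CPM that comparison rests on both stage 11.5 libraries together, since 3 reads in library a alone would be 1035, above the 789 and 619 of stage 26 libraries a and b.

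The fit gave miR-182 a scaled log2 value of 2.91 (SE 0.195, limma adjusted p = 0.000383, with 1.40e-05 to 0.0199 over the 15 alternatives). This call adds no support, because miR-182 entered the test through its stage 26 level alone and a row at 0 in both libraries has no spread at stage 11.5. The fitted value is also no bound, and was log2 5.06 with a pseudocount of 10 CPM and 1.39 with 200 CPM. In all, 39 of the 98 rows (39.8%) were at 0 at stage 11.5 and above 0 at stage 26, so being read at stage 26 alone is common in this table. At the depth of stage 11.5 a 0 does not show that a miRNA was absent there. Among these 39 rows miR-182 had the fourth most reads at stage 26, 58 against a median of 15.

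miR-183, from the same cluster as miR-182, was barely above detection. It had 4 reads in each stage 26 library, or 85.3 and 95.5 CPM in a and b, against 0 reads in both stage 11.5 libraries. Over pooled reads its stage 26 share was 1.59 times the floor of 56.5 CPM. That value leaves out the counting error of its 8 reads and is no lower bound. The exact 95% intervals of single libraries overlapped, at 23.2 to 218.4 and 26.0 to 245 CPM at stage 26, against 0 to 163 and 0 to 121 CPM at stage 11.5, so single libraries show no difference beyond counting error. At its stage 26 share 4.78 reads would have been counted at stage 11.5, or 0.821 when set against the reads outside the miR-427 family. After TMM scaling its stage 26 level of 45.3 was below the stage 11.5 floor of 111 scaled CPM, and so no change was detectable at this depth on that scale or in non-427 CPM. Its 8 reads did not reach the filter. Fitted with no filter it passed (scaled log2 0.92, limma adjusted p = 0.00887), in the same absence of spread at stage 11.5. Of the 98 rows, 29.6% were at 0 at stage 11.5 and above 0 in both stage 26 libraries, as miR-182 and miR-183 were.

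At stage 26 miR-182 had 8.5 times the reads of miR-183 in library a and 6.0 times in library b. Pooled, the ratio was 58 to 8 reads, or 7.25 (exact 95% interval 3.45 to 17.6). Both libraries showed more reads of miR-182 than of miR-183. How many reads a molecule of each gives was not measured, so the ratio is one of reads and not of molecules. The pair could not be compared at stage 11.5, where both were at 0.

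**Figure D3:**
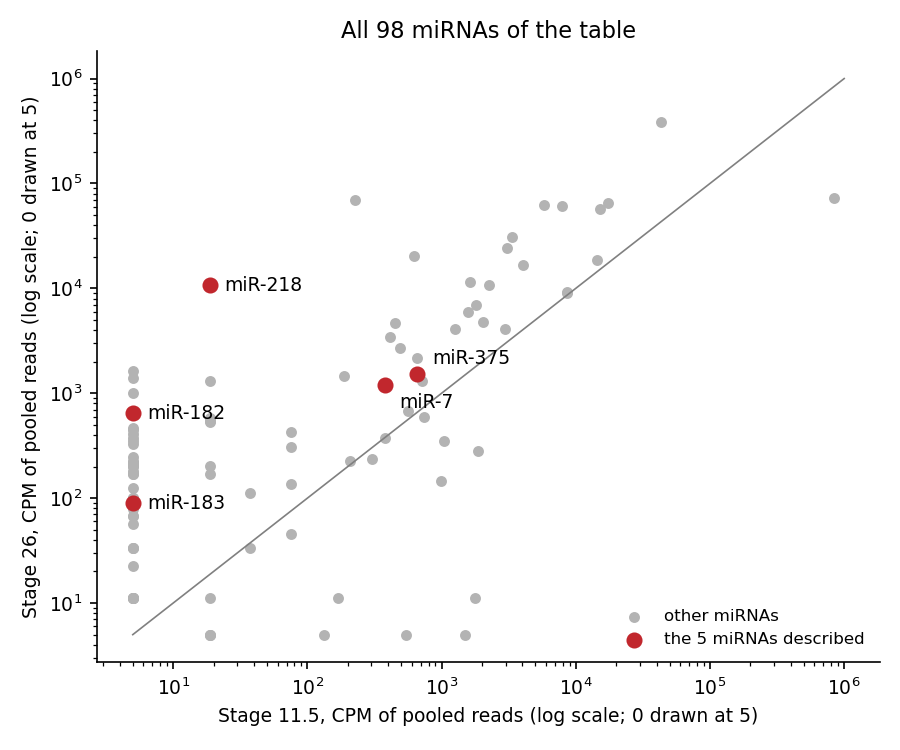
Pooled level of each of the 98 miRNAs at stage 26 (y axis) against stage 11.5 (x axis), in CPM on log scales, with rows at 0 drawn at the edge and a line of equal share. miR-218 lies far above the line, miR-182 and miR-183 are in the column of rows at 0 at stage 11.5, and miR-7 and miR-375 lie close to many other miRNAs just above the line.

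miR-7, known from neurosecretory cells, was present at both stages. It stood at 1237 and 1170 CPM in stage 26 libraries a and b (58 and 49 reads), against 485 and 296 CPM at stage 11.5 (11 and 9 reads). Means were 1203 ± 47.2 CPM at stage 26 and 391 ± 134 CPM at stage 11.5 (SD, n = 2 each). In share it was higher at stage 26 without overlap, with a ratio of pooled reads of 3.20 (exact 95% interval 1.97 to 5.45). After scaling the levels were 616 and 595 scaled CPM at stage 26, against 1012 and 560 at stage 11.5, so that the stages overlapped. The ratio of pooled reads was 0.816 after TMM scaling (interval 0.503 to 1.39) and 0.549 in non-427 CPM (interval 0.338 to 0.935).

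In the fit the scaled log2 fold change of miR-7 was -0.30 (SE 0.355, 95% interval -1.24 to 0.65, limma adjusted p = 0.504). It was higher in the deposited CPM (log2 1.54, limma adjusted p = 0.00453), where 71.2% of tested miRNAs were. In non-427 CPM its levels were 1346 and 1264 at stage 26, against 3796 and 1635 at stage 11.5. Both stage 26 libraries were then the lower ones, and the fit did not call it (log2 -0.91, limma adjusted p = 0.257). Without library b of stage 11.5 it was called lower after scaling (log2 -0.67, limma adjusted p = 0.0487), and without library a the sign turned (log2 0.14, limma adjusted p = 0.419), the alternatives spanning 0.00453 to 0.781. These data thus give no direction for miR-7 that holds across scalings.

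miR-375, known from endocrine cells, was also read at both stages, with a large difference between the stage 11.5 libraries. It stood at 1791 and 1218 CPM in stage 26 libraries a and b (84 and 51 reads), against 1103 and 329 CPM at stage 11.5 (25 and 10 reads). Means were 1505 ± 406 CPM at stage 26 and 716 ± 547 CPM at stage 11.5 (SD, n = 2 each). Libraries a and b differed 1.47-fold at stage 26 and 3.35-fold at stage 11.5, and the ratio of pooled reads between the stages was 2.31 in share (exact 95% interval 1.58 to 3.45). That ratio was 0.589 after TMM scaling (interval 0.403 to 0.880) and 0.396 in non-427 CPM (interval 0.271 to 0.592), the opposite direction, with intervals of counting error that leave out the difference between libraries. In share, the libraries of stage 11.5 thus differed by more than the stages did.

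limma called miR-375 in none of the 15 alternatives, and its unadjusted p was under 0.05 in 1 of them (0.0382, lower, without library b of stage 11.5). Its scaled log2 fold change was -0.66 (SE 0.675, 95% interval -2.46 to 1.13, limma adjusted p = 0.454). In the deposited CPM it was 1.21 (limma adjusted p = 0.0994), and in non-427 CPM -1.28 (limma adjusted p = 0.268). It was 0.28 without library a of stage 11.5 (limma adjusted p = 0.574) and -1.55 without library b (limma adjusted p = 0.0555), over a range of 0.0555 to 0.826. The interval of the scaled change covers both a several-fold fall and a rise of 2-fold, so a p above 0.05 does not show equal levels.

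**Figure D4:**
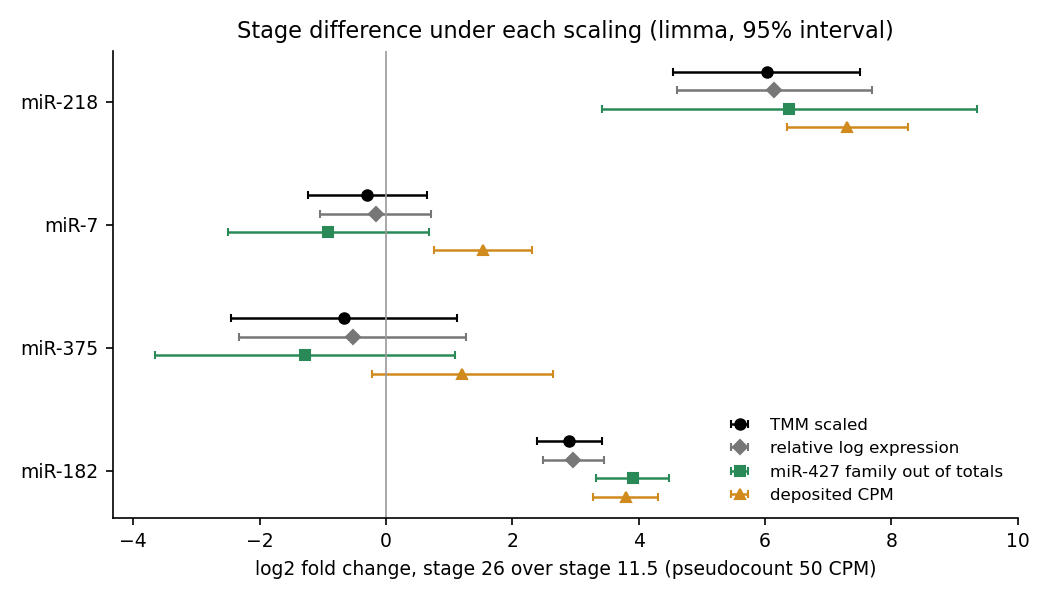
Log2 fold change of stage 26 over stage 11.5 (x axis) of the 4 tested miRNAs (y axis) from limma, with 95% intervals, after TMM scaling, with relative log expression factors, in non-427 CPM, and in the deposited CPM. miR-218 and miR-182 lie above 0 under all 4, while miR-7 and miR-375 lie above 0 in the deposited CPM alone. As miR-218 and miR-182 passed the filter through stage 26 alone, their place above 0 adds no support. The intervals of miR-182 are too narrow, because a row at 0 in both stage 11.5 libraries has no spread there.

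Ratios between these miRNAs within a library do not depend on the scaling. There were 8.12 and 9.92 reads of miR-218 per read of miR-7 in libraries a and b of stage 26, with exact 95% intervals of 6.17 to 10.9 and 7.38 to 13.6. At stage 11.5 the ratio was 0.0909 (interval 0.00211 to 0.625) in library a and 0 (up to 0.507) in library b. miR-218 and miR-7 therefore changed unequally between the stages in each pair of libraries. The ratio of miR-375 to miR-7 was 1.45 and 1.04 at stage 26 (intervals 1.02 to 2.06 and 0.689 to 1.57), against 2.27 and 1.11 at stage 11.5 (intervals 1.08 to 5.12 and 0.406 to 3.09), with overlapping intervals. miR-182 to miR-7 was 0.586 and 0.490 at stage 26 (intervals 0.372 to 0.910 and 0.287 to 0.814), against 0 in both libraries at stage 11.5, up to 0.398 in library a and 0.507 in library b. Over pooled reads miR-182 to miR-7 was 58 to 107 at stage 26, or 0.542 (exact 95% interval 0.387 to 0.753), against 0 to 20 at stage 11.5 (up to 0.203). The pooled intervals did not overlap, while those of single libraries did.

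The order of mean CPM at stage 26 was miR-218, miR-375, miR-7, miR-182 and miR-183. miR-375 and miR-7 are neighbours whose libraries overlapped (1791 and 1218 against 1237 and 1170 CPM), and the other neighbours were apart in both libraries. At stage 11.5 the order was miR-375, miR-7 and miR-218, with miR-182 and miR-183 at 0. There miR-375 (1103 and 329 CPM) and miR-7 (485 and 296 CPM) overlapped again, and miR-218 with 1 read cannot be ranked against rows at 0. Levels of different miRNAs are compared here as reads per mature miRNA. How many reads a molecule of each gives was not measured, so these orders are of reads and not of molecules.

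The miRNAs most like each tested miRNA were named as the 2 nearest other rows by Euclidean distance of the 4 library values of log2(scaled CPM + 50). For miR-218 these were miR-301 (distance 4.05) and miR-215 (4.34), both with 0 reads at stage 11.5 and with 1471 and 1791 CPM and 1216 and 1576 CPM in libraries a and b of stage 26. Both stood well below miR-218 at stage 26, so no row of the table was close to it by this distance. By scaled log2 fold change miR-218 ranked 2nd of the 52 tested miRNAs, so its value was not the largest. For miR-182 they were miR-107 (distance 0.631) and miR-22* (0.777), which were at 0 at stage 11.5 and at 448 and 478 CPM and 384 and 525 CPM in libraries a and b of stage 26. For miR-7 they were miR-1b (1.33) and miR-193 (1.35), and for miR-375 miR-130a (1.25) and miR-1b (1.29). Over 4 libraries in 2 stages, likeness of this kind says little more than that level and direction were alike.

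Few other miRNAs known from neurons and endocrine cells had a row. Of a list of 20 further numbers, 17 had none and so have no value, and the 3 with a row were miR-204, miR-139 and miR-135, none of which passed the filter. Together they took 0.0235% of reads in library a and 0.0406% in library b of stage 26 (11 and 17 reads), against 0 reads at stage 11.5. miR-139 had 171 and 239 CPM in stage 26 libraries a and b (8 and 10 reads), against 0 in both libraries of stage 11.5. miR-204, known from eye and choroid plexus, had 1 and 6 reads at stage 26, and miR-135 had 2 and 1.

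Shares of all reads taken by marker lists of tissues differed between the stages too. Of all reads, the miR-427 family took 7.40% to 8.08% at stage 26 and 81.9% to 87.2% at stage 11.5. The lists were not computed in non-427 reads, where sizes and directions can differ. Whether the direction of a list between the stages holds across scalings was therefore not computed. None of the 7 neural marker numbers (among them miR-9 and miR-124, the classical miRNAs of vertebrate brain) had a row, so the neural name of the group describes where its members are known from and not cells shown to be in the explants. Epithelial and epidermal rows (5 rows, miR-200a, miR-200b, miR-203, miR-205a and miR-429) took 14.7% to 15.6% of reads at stage 26 and 1.70% to 1.73% at stage 11.5. Among them miR-205a had only 1 read at stage 26 and none at stage 11.5. The rows of multiciliated cells (miR-34a, miR-34b and miR-449) took 46.0% to 47.0% at stage 26 and 4.02% to 4.87% at stage 11.5. Rows known from tissues beneath the epidermis were low, with muscle (2 of 5 numbers) at 0.143% to 0.160% at stage 26 and 0.0691% to 0.0750% at stage 11.5. Endoderm (2 of 4 numbers) stood at 0.124% to 0.158% at stage 26 and 0% at stage 11.5, and blood and vessel (4 of 6 numbers) at 0.0277% to 0.0382% at stage 26 and 0.101% to 0.128% at stage 11.5. The endoderm reads at stage 26 were 123 of miR-215 and 1 of miR-192. In libraries a and b of stage 26, miR-218 took 1.004% and 1.16% of reads, above each of these 3 lists. miR-182 took 0.0725% and 0.0573%, below the muscle and endoderm lists, and miR-183 took 0.00853% and 0.00955%, below all 3. At stage 26, miR-7 took 0.124% and 0.117% and miR-375 0.179% and 0.122%, near the shares of the muscle and endoderm lists. At stage 11.5, miR-7 took 0.0485% and 0.0296%, below the muscle and the blood and vessel lists. miR-375 took 0.110% and 0.0329% there. The part of such cells in the values of the miRNAs described was not tested.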

How the data were processed

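The values are CPM as deposited by the authors: each library column sums to 1000000 over the 98 listed miRNAs. Small RNA libraries were made with Ambion's SREK kit, per the labels' protocols. Sources used here do not give the sequencer, aligner, mismatches allowed or miRNA database. Stages follow the developmental stage label, although both b libraries carry a slightly later stage in their source name. All values (100.0%) were whole multiples of the smallest nonzero value of their column within 1e-06, which gave reads. This recovery rests on 98 values per column and has no independent check, so a planned count test was not used. Intervals, floors and TMM factors rest on it. Non-427 CPM are reads over all reads outside rows miR-427 and miR-428. TMM trimmed 30% of M and 5% of A values at each end, over the tested miRNAs. limma 3.58.1 (R 4.3.3, mean-variance trend) was fitted to log2(scaled CPM + 50), which understates changes of low miRNAs. Exact intervals used scipy 1.17.1. The fit was checked on simulated tables. These held no shift between stages like that of the miR-427 family, so they do not test the scaling of these data. The members and lists were chosen with earlier results of these data known. Named miRNAs are the 5 members, the 2 rows nearest each tested member, and listed neural and endocrine rows; miR-30a-5p, miR-204, miR-135 and the marker rows were named after their values were seen. Alternatives changed the scaling, filter, pseudocount, trend, replicate block and libraries used.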

Additional observations from a re-analysis of the deposited data

How the results depend on the processing

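Over 15 alternatives, miR-182 was called higher in all, miR-218 in 13 and miR-375 in none. For miR-182 and miR-218 this is no sign of stability, since they passed the filter through stage 26 alone and miR-182 has no spread at stage 11.5. miR-7 was called higher in 2 and lower in 1. In the deposited CPM, 37 tested miRNAs were higher and 6 lower, against 20 and 11 after scaling. miR-7 and miR-375 reversed to log2 1.54 and 1.21 in the deposited CPM, with the filter or without it. After scaling with no filter they did not reverse, at log2 -0.33 and -0.70. No filter gave 34 higher of 98 tested, and 57 higher in the deposited CPM, of which 4 of the 5 miRNAs described (an alternative chosen after seeing the data, as was TMM over all rows, which gave 16 higher and 11 lower). Leaving out 1 library gave 8 to 27 higher and 3 to 13 lower, with 1 to 2 of the miRNAs described higher and 0 to 1 lower. The low counts came without library a or b of stage 26 (8 higher each, 3 and 4 lower), where the lone library is assumed to vary like the other stage. Without library a of stage 11.5, miR-7 and miR-375 reversed to log2 0.14 and 0.28, against -0.67 and -1.55 without library b. The share of reads in the 5 rows was 1.55% at stage 26 and 0.811% at stage 11.5 of non-427 reads. As a share of all reads without miR-218 it was 0.345% at stage 26. Per library the 5 rows took 1.39% to 1.47% at stage 26 and 0.0625% to 0.163% at stage 11.5, of all reads. With the replicate letter as a block (replicate block), 19 were higher and 10 lower, and the calls of the 4 tested miRNAs did not change. The labels do not say that letters pair libraries, and the differences between a and b correlated at r = -0.26 between the stages over 52 miRNAs, which are not independent. The planned count-based alternative (edgeR) was not run, since the recovery of reads could not be checked. Depth limits rows at 0 at stage 11.5 to a floor of 56.5 CPM in share.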
